A study of Homo sapiens with 9 samples.

Results

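The 8 genes described here encode the human lysyl oxidases (LOX, LOXL1, LOXL2, LOXL3 and LOXL4) and the lysyl hydroxylases (PLOD1, PLOD2 and PLOD3). They were taken as every probe set on the array whose annotated gene symbol is that of a member, which gave 8 of 19775 annotated genes and 15 of 54613 probe sets, 11 for the oxidases and 4 for the hydroxylases. Their transcripts were measured in HuCCT1 cells, a long-established human line grown from a bile duct cancer (cholangiocarcinoma). Of 9 single-colour arrays, 5 carried RNA of YAPS127A cells, transfected to overexpress a constitutively active mutant of the transcriptional co-activator YAP1, and 4 carried RNA of cells given the empty vector. The mutated serine is the one at which LATS kinases of the Hippo pathway normally mark YAP1 for retention outside the nucleus. Both groups were grown in the same serum-supplemented RPMI-1640 medium. The labels name neither the transfection protocol nor the time of harvest, and do not say whether the numbered samples came from separate cultures. So the p-values refer to the spread among these 9 samples alone, part of which may be technical.

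Lysyl hydroxylases act in the endoplasmic reticulum, where they add a hydroxyl group to lysines of newly made collagen chains. Lysyl oxidases are copper-dependent amine oxidases that act mostly after secretion, turning lysines and hydroxylysines of collagen, and lysines of elastin, into aldehydes that condense into covalent cross-links. Whether a lysine at the chain ends was hydroxylated first, a step assigned to PLOD2, decides which kind of cross-link forms. Both families are studied in cancer for the stiffening of the collagen-rich matrix around solid tumours.

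Biliary epithelial markers were among the bright genes of these arrays. The 7 listed (KRT7, KRT8, KRT18, KRT19, EPCAM, SOX9 and CDH1) had mean log2 signals of 12.84 to 14.34 in YAPS127A cells and 12.89 to 14.26 in empty vector cells. The YAP target ANKRD1 was higher by 2.24 in YAPS127A cells (SE 0.13, limma adjusted p = 3.38e-07). The brightest YAP1 probe set averaged 12.71 ± 0.07 in YAPS127A cells (SD, n = 5) and 12.56 ± 0.06 in empty vector cells (SD, n = 4), a difference of 0.15 that did not pass (limma adjusted p = 0.121). Whether that probe set can read the construct is not known. Array medians ran from 5.95 to 5.97 on the log2 scale, and precision is limited by the number of arrays.

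More members were higher in YAPS127A cells than were lower. By its brightest probe set, LOXL4 had the highest difference, followed by LOX, LOXL1, LOXL3, PLOD2 and PLOD3. LOXL2 and PLOD1 did not pass at any of their probe sets. With limma and Benjamini-Hochberg adjustment over all probe sets (threshold 0.05), 9 of the 15 member probe sets were called higher and 0 lower. Over all probe sets 23.9% were called, 11.9% higher and 12.0% lower. Among the uncalled ones, LOXL2 probe set 202997_s_at lay higher and LOXL2 probe set 202999_s_at lower at an unadjusted limma p under 0.05. After adjustment, 202999_s_at was called lower without YAPS127A replicate 2 or with the median of neighbouring genes removed. Without empty vector replicate 4, 202997_s_at was called higher. Limma with trend and robust variance or with array weights called 0 lower. The groups did not overlap at 7 member probe sets, all higher in YAPS127A cells, while 22.3% of all probe sets did not overlap, 11.2% higher and 11.0% lower. The median log2 difference, YAPS127A minus empty vector, was 0.30 over the member probe sets and 0.00102 over all probe sets. In such bulk RNA, fewer cells that make a transcript and less of it per cell cannot be told apart.

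**Figure D1:**
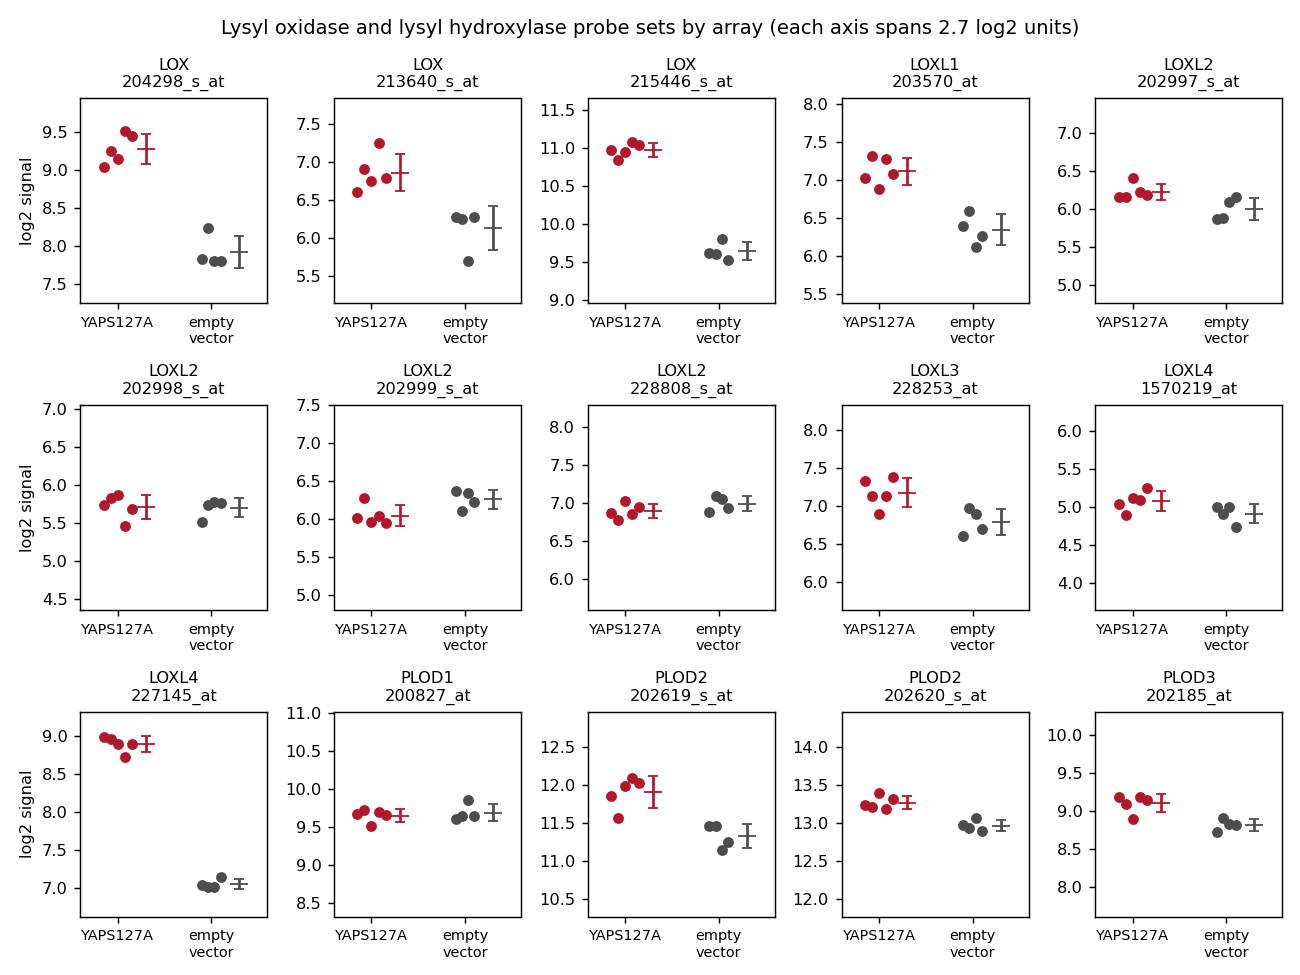
Log2 signal (y axes, each spanning the same number of log2 units) of the 15 member probe sets, with a point for each array, YAPS127A left and empty vector right, and the mean with its SD beside the points. The groups lie apart for LOX, LOXL1, PLOD2 and probe set 227145_at of LOXL4, and overlap for LOXL2, LOXL3, PLOD1, PLOD3 and probe set 1570219_at of LOXL4.

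The promoters of the 4 genes whose groups did not overlap at 1 or more probe sets are shown because these members rose together. RefSeq windows (GRCh38.p14) of 250 bases before to 50 bases from the annotated start were found for 7 of the 8 members, 10 windows in all. Those shown lie at the outermost start of each gene and are chr5:122078210-122078509 on the minus strand for LOX, chr15:73926212-73926511 on the plus strand for LOXL1, chr10:98268145-98268444 on the minus strand for LOXL4 and chr3:146161135-146161434 on the minus strand for PLOD2. Capitals mark matches, on either strand, to ACGTG, the core letters bound by hypoxia-inducible factors. The letters GGAATG, bound by TEAD factors (the DNA-binding partners of YAP1), and TGANTCA, bound by AP-1, were also searched on both strands and have no match in these 4 windows.
LOX: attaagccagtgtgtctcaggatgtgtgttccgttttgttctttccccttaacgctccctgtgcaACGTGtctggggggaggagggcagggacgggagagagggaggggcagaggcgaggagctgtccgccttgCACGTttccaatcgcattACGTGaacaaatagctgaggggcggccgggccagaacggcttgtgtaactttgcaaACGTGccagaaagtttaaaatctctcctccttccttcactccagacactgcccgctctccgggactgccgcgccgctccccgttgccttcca
LOXL1: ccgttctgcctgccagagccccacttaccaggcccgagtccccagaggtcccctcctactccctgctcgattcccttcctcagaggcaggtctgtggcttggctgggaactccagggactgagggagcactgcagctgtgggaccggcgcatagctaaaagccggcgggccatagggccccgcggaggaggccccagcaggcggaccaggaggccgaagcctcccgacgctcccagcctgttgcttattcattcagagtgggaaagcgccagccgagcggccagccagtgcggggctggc
LOXL4: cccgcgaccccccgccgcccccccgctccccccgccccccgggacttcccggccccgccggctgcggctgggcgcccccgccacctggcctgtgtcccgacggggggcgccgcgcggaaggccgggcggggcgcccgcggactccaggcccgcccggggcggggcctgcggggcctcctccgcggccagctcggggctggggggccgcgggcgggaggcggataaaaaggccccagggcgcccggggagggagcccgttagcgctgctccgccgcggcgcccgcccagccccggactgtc
PLOD2: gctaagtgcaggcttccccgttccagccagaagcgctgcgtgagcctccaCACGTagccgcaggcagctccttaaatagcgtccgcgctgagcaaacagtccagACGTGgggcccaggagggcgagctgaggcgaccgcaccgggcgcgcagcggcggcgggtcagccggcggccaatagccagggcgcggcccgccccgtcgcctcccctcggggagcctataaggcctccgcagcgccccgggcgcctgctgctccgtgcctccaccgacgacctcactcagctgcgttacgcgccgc
The LOX window holds 4 ACGTG matches, and 0.843% of 35116 RefSeq windows of this length hold 4 or more. The PLOD2 window holds 2, and 8.82% of all windows hold 2 or more, while 21.4% hold at least 1. Neither the LOXL1 nor the LOXL4 window holds any. GGAATG occurs in 14.0% of all windows and TGANTCA in 7.71%. Among the 7 members with a window, GGAATG was found only in a window of LOXL3, which holds 2 matches. Of all windows 1.37% hold 2 or more GGAATG, and this LOXL3 window does not lie at the outermost start of the gene. A single CACGTG site counts as 2 ACGTG matches, being read on both strands. The ACGTG shares for 2 or more and 4 or more thus include windows with fewer separate sites. No matches overlap in the 4 windows shown, and a match describes the sequence only.

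LOX encodes the founding lysyl oxidase, a secreted enzyme that is released in active form when proteases of the BMP1 family cut off its propeptide. Its brightest probe set, 215446_s_at, read 10.97, 10.84, 10.95, 11.07 and 11.04 on the YAPS127A arrays, against 9.62, 9.60, 9.81 and 9.53 on the empty vector arrays (log2 signal). The lowest YAPS127A array thus lay more than 1 log2 unit above the highest empty vector array. The difference was 1.34 (SE 0.07, limma adjusted p = 2.06e-07), or 2.53-fold.

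The second LOX probe set, 204298_s_at, read 9.04, 9.25, 9.14, 9.51 and 9.45 on YAPS127A arrays, against 7.83, 8.24, 7.81 and 7.80 on empty vector arrays. It differed by 1.36 (SE 0.12, limma adjusted p = 8.22e-06), again with no overlap. The third, 213640_s_at, read 6.61, 6.91, 6.75, 7.26 and 6.79 on YAPS127A arrays, against 6.29, 6.26, 5.70 and 6.28 on empty vector arrays. Its groups were also separate, and it differed by 0.73 (SE 0.15, limma adjusted p = 0.00341). Averaged over its 3 probe sets, LOX was higher by 1.14. The neighbours of LOX on chromosome 5 were slightly lower in YAPS127A cells (median -0.15), and with their median removed on each array the 3 differences were 1.49, 1.51 and 0.88.

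LOXL4 encodes a secreted oxidase of the LOXL2 to LOXL4 subgroup, whose members carry scavenger receptor cysteine-rich domains ahead of the catalytic domain. Probe set 227145_at read 8.99, 8.96, 8.90, 8.73 and 8.89 on YAPS127A arrays, against 7.05, 7.01, 7.01 and 7.14 on empty vector arrays. These groups stood farthest apart of all member probe sets. The difference of 1.84 (SE 0.07, limma adjusted p = 7.70e-09), or 3.58-fold, ranked 141 from the top among 54613 probe sets.

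The other LOXL4 probe set, 1570219_at, had a mean signal above that of 36.0% of all probe sets, and its groups overlapped. It read 5.03, 4.89, 5.12, 5.09 and 5.25 on YAPS127A arrays and 5.00, 4.90, 5.00 and 4.73 on empty vector arrays, a difference of 0.17 (SE 0.09, limma adjusted p = 0.203). The rise of LOXL4 therefore rests on 1 probe set, and as the mean of both it was 1.00. Neighbouring genes on chromosome 10 were also higher, by a median of 0.29. With that median removed, 227145_at was higher by 1.55 and 1570219_at stood at -0.13 (limma adjusted p = 0.336).

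LOXL1, an oxidase linked mainly to elastic fibres, was also higher in YAPS127A cells. Its single probe set, 203570_at, read 7.03, 7.32, 6.88, 7.28 and 7.08 on YAPS127A arrays, against 6.40, 6.60, 6.13 and 6.27 on empty vector arrays. The groups did not overlap. The difference was 0.77 (SE 0.11, limma adjusted p = 0.000366), or 1.70-fold, and 0.72 with the neighbours' median removed.

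LOXL3, an oxidase of the same subgroup as LOXL4, passed with a smaller difference. Probe set 228253_at read 7.33, 7.13, 6.91, 7.14 and 7.39 on YAPS127A arrays, against 6.61, 6.97, 6.89 and 6.71 on empty vector arrays. YAPS127A replicate 3 lay between the empty vector arrays, so the groups overlapped. The difference was 0.38 (SE 0.11, limma adjusted p = 0.0231). The call was lost without YAPS127A replicate 1 (0.35) or 5 (0.33), or without empty vector replicate 1 (0.32) or 4 (0.35).

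LOXL2, an oxidase studied for its part in tumour fibrosis and also reported in the nucleus, was not called at any of 4 probe sets. The brightest, 228808_s_at, read 6.86, 6.77, 7.02, 6.85 and 6.94 on YAPS127A arrays and 6.88, 7.09, 7.04 and 6.93 on empty vector arrays. Its difference of -0.10 had a 95% interval of -0.25 to 0.06 (limma adjusted p = 0.401). The other probe sets differed by 0.23 (202997_s_at, limma adjusted p = 0.0700), 0.01 (202998_s_at, limma adjusted p = 0.946) and -0.22 (202999_s_at, limma adjusted p = 0.0982). Their signals lay between 5.45 and 6.41 on all arrays. Probe set 202997_s_at was called higher without empty vector replicate 4 (0.28), and 202999_s_at was called lower without YAPS127A replicate 2 (-0.27) or with the neighbours' median removed (-0.26).

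Among the hydroxylases no difference exceeded 0.58. PLOD2 encodes the hydroxylase of collagen telopeptides, the chain ends at which cross-links start. Its brightest probe set, 202620_s_at, read 13.24, 13.21, 13.39, 13.18 and 13.31 on YAPS127A arrays, against 12.97, 12.93, 13.06 and 12.89 on empty vector arrays. The groups were separate, with a difference of 0.30 (SE 0.07, limma adjusted p = 0.00543), or 1.24-fold. This signal lay above that of 98.6% of all probe sets, near the top of the range. Probe set 202619_s_at read 11.86, 11.56, 11.98, 12.10 and 12.02 on YAPS127A arrays, against 11.46, 11.46, 11.14 and 11.24 on empty vector arrays. It differed by 0.58 (SE 0.11, limma adjusted p = 0.00256), also without overlap.

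PLOD3, which besides hydroxylating lysines transfers sugars to hydroxylysine, was slightly higher. Probe set 202185_at read 9.19, 9.09, 8.90, 9.18 and 9.14 on YAPS127A arrays, against 8.72, 8.91, 8.82 and 8.81 on empty vector arrays. The lowest YAPS127A array lay just under the highest empty vector array. The difference was 0.28 (SE 0.07, limma adjusted p = 0.0166), and the call was lost without empty vector replicate 1 (0.25).

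PLOD1, the hydroxylase of the triple-helical part of collagen, did not pass. Probe set 200827_at read 9.67, 9.73, 9.51, 9.70 and 9.67 on YAPS127A arrays and 9.61, 9.65, 9.86 and 9.65 on empty vector arrays. The groups overlapped in part. The difference of -0.04 had a 95% interval of -0.20 to 0.12 (limma adjusted p = 0.783).

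**Figure D2:**
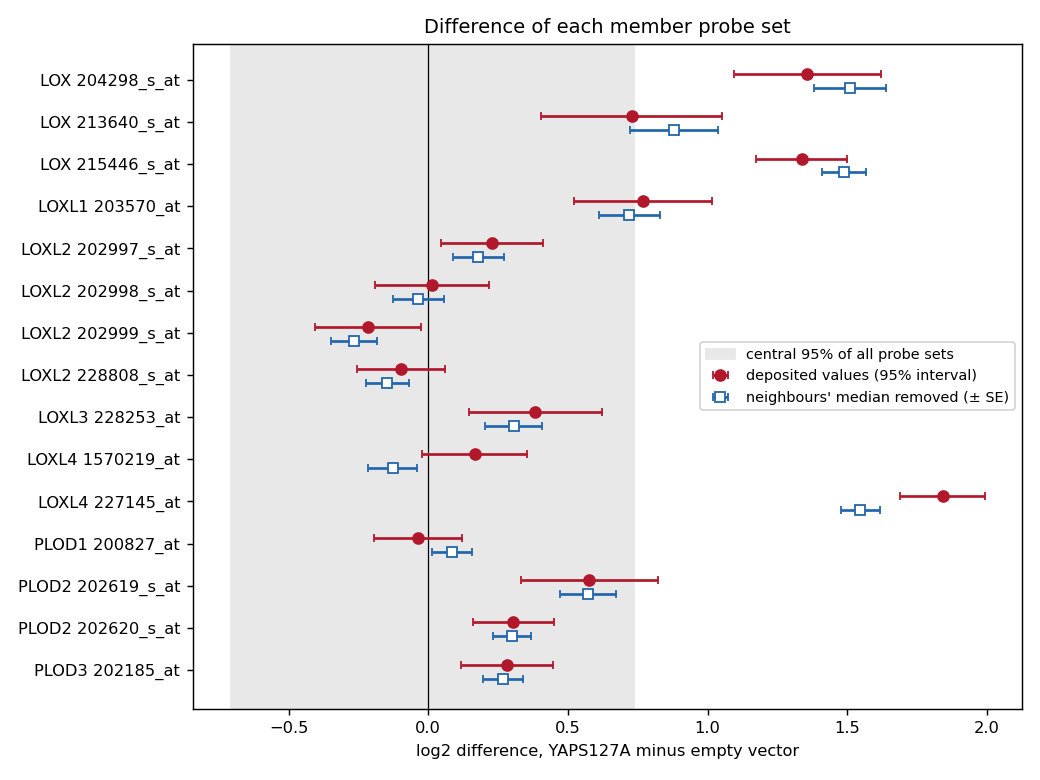
Log2 difference, YAPS127A minus empty vector, of each member probe set (x axis), from the deposited values with its 95% interval (filled circles) and after removal of the median of neighbouring genes with its SE (open squares). The shaded band holds the central 95% of all probe sets, from -0.71 to 0.74, and LOXL4 at 1.84 and LOX at 1.36 and 1.34 lie well to its right.

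Probe sets of the same gene were compared by the gap between them on each array, in 11 pairs, with 2-sided exact permutation tests whose smallest possible p was 0.0159. That value was reached by the LOXL4 pair, whose gap was 3.82 ± 0.19 in YAPS127A cells (SD, n = 5) and 2.14 ± 0.18 in empty vector cells (SD, n = 4). It was also reached by 204298_s_at against 213640_s_at of LOX, which differed in response by 0.63, and by 202997_s_at against 228808_s_at of LOXL2, by 0.32 (exact p = 0.0159 each). Adjusted over the 11 pairs these became 0.0582. Counting only pairs at the smallest p, at least 4 would be needed for these to pass, and 3 reached it. With so few arrays the adjusted values say little about any pair. The pair of PLOD2 differed in response by 0.27 (exact permutation p = 0.0794). Probe set positions along the transcripts were not used here.

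The genes whose brightest probe sets followed LOXL4 most closely were CPA4, FAT3 and TENT5B. Their Pearson r with 227145_at over the 9 arrays was 0.998, 0.997 and 0.997, the highest among 12225 genes brighter than the median. With group means removed r was 0.59, 0.80 and 0.44, so much of the likeness lay in the group difference that all 3 share (1.85, 2.12 and 2.21). For PLOD2, probe set 202619_s_at was followed most closely by LRCH1, CHIC2 and EEIG2 (r = 0.981, 0.980 and 0.975). For these r was 0.97, 0.92 and 0.90 with group means removed, and their group differences were 0.28, 0.94 and 0.68. Much of this likeness thus lay in the spread among arrays of the same group, part of which may be technical. All these correlations are over the same 9 arrays and describe them only.

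Genes that work beside these enzymes, together with hypoxia targets and HIF factors, were read from 7 lists, each gene by its brightest probe set. The lists were chosen with earlier results of these data known. Of 75 measured genes, 20 were higher and 15 lower, or 46.7% called in either direction, against 28.7% of all 19775 genes (14.5% higher and 14.2% lower). Their median difference was 0.02, against 0.00477 over all genes. The share called was uneven, at 82.4% for hypoxia targets and HIF factors, 63.6% for LOX-binding matrix partners and 55.6% for collagen folding and glycosylation. It was 44.4% for prolyl hydroxylases, 28.6% for copper delivery, 16.7% for the substrates and 10% for propeptide processing.

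Among 9 collagen prolyl hydroxylase genes, 4 rose and 0 fell, with a median of 0.18. At an unadjusted limma p under 0.05, 1 member lay lower, P4HB at -0.14. With each gene's probe sets averaged, 4 passed as higher and 2 as lower. Those lower were P4HA2, another catalytic subunit of prolyl 4-hydroxylase (-0.20, limma adjusted p = 0.00632), and P4HB, its beta subunit (-0.23, limma adjusted p = 0.0438). P3H2, a prolyl 3-hydroxylase, had 11.48, 11.61, 11.42, 11.39 and 11.32 in YAPS127A cells, against 10.53, 10.42, 10.34 and 10.48 in empty vector cells. It rose by 1.00 (SE 0.07, limma adjusted p = 1.79e-06) and by 0.59 averaged over both probe sets. P4HA1, a catalytic subunit of the prolyl 4-hydroxylase that stabilises the collagen helix, rose by 0.83 (SE 0.08, limma adjusted p = 1.35e-05). Averaged over its probe sets the difference was 0.46, and it was 0.49 with the neighbours' median removed. P3H4, which in mice forms a complex with lysyl hydroxylase 1, rose by 0.34 (limma adjusted p = 0.0128). CRTAP, a partner of prolyl 3-hydroxylase, rose by 0.27 at its brightest probe set, but of its 5 probe sets 2 were higher and 1 lower, and their mean was 0.05 (limma adjusted p = 0.566).

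Of 9 measured genes of collagen folding, export and hydroxylysine glycosylation, 4 rose and 1 fell, with a median of 0.18. SERPINH1, the collagen chaperone HSP47, had 8.45, 8.80, 8.84, 8.70 and 8.57 in YAPS127A cells, against 8.07, 7.60, 7.40 and 7.78 in empty vector cells. It rose by 0.96 (SE 0.13, limma adjusted p = 0.000190). FKBP10, a prolyl isomerase known to assist PLOD2, rose by 0.44 (SE 0.08, limma adjusted p = 0.00148), with all YAPS127A arrays above all empty vector arrays. SEC23A, a coat component of vesicles leaving the endoplasmic reticulum, rose by 0.30. MIA3, which loads procollagen into those vesicles, fell (-0.60), and stood at -0.36 with the neighbours' median removed. FKBP14, named after its values were seen, rose by 0.24 but stood at -0.05 once the neighbours' median was removed (limma adjusted p = 0.665).

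Among the substrates of cross-linking, none passed as higher. Of 12 fibrillar collagen and elastin genes, limma called 0 higher and 2 lower, with a median of 0.02. At an unadjusted limma p under 0.05, 1 lay higher, COL11A1 at 0.23. COL5A2, a chain of type V collagen, had 8.37, 8.02, 8.19, 7.94 and 8.20 in YAPS127A cells, against 9.18, 9.35, 9.40 and 9.37 in empty vector cells. Its brightest probe set fell by 1.18 (SE 0.09, limma adjusted p = 2.99e-06). Both of its probe sets were called lower, with a mean of -1.21. COL1A1, a chain of type I collagen, fell (-0.70, SE 0.07, limma adjusted p = 3.02e-05), and stood at -0.40 averaged over 5 probe sets. The elastin gene ELN differed by 0.16 (limma adjusted p = 0.153), and 3 of the list had a mean signal below the lower quartile of all probe sets (4.26). Of 10 genes that process procollagen and the LOX propeptide, limma called 1 lower and 0 higher, and none lay higher at an unadjusted p under 0.05. The one that fell was PCOLCE2, an enhancer of procollagen C-proteinase (-0.56, limma adjusted p = 8.12e-05). BMP1, the protease that activates LOX, differed by 0.10 (limma adjusted p = 0.587), and 4 of these 10 were below the lower quartile.

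Genes of matrix proteins listed as LOX partners moved both ways, with 4 of 11 higher, 3 lower and a median of -0.04. Binding of these proteins to LOX was not tested here. FBLN1, fibulin-1, had 11.85, 11.82, 11.80, 11.78 and 11.78 in YAPS127A cells, against 9.76, 9.97, 9.65 and 9.94 in empty vector cells. It rose by 1.98 (SE 0.08, limma adjusted p = 8.79e-09). With the neighbours' median removed the rise was 1.65. Averaged over 5 probe sets, 4 of them called higher, it was 1.37. EFEMP2, the fibulin-4 that brings LOX to tropoelastin, had 7.30, 7.34, 7.27, 7.22 and 7.29 in YAPS127A cells, against 5.45, 5.72, 5.54 and 5.49 in empty vector cells. Its brightest probe set rose by 1.73 (SE 0.07, limma adjusted p = 1.20e-08). Both of its probe sets were called higher, with a mean of 1.45. POSTN, periostin, rose by 0.89, by 0.54 with the neighbours' median removed and by 0.40 averaged over 4 probe sets. FN1, fibronectin, fell (-0.79, limma adjusted p = 9.48e-06). It was called lower at 5 of 7 probe sets, and the mean of all 7 was -0.51. Named after their values were seen, FMOD rose by 0.54, and FBLN5 (-0.79) and THBS2 (-0.62) fell. THBS2 did not pass with the neighbours' median removed (-0.23, limma adjusted p = 0.109).

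**Figure D3:**
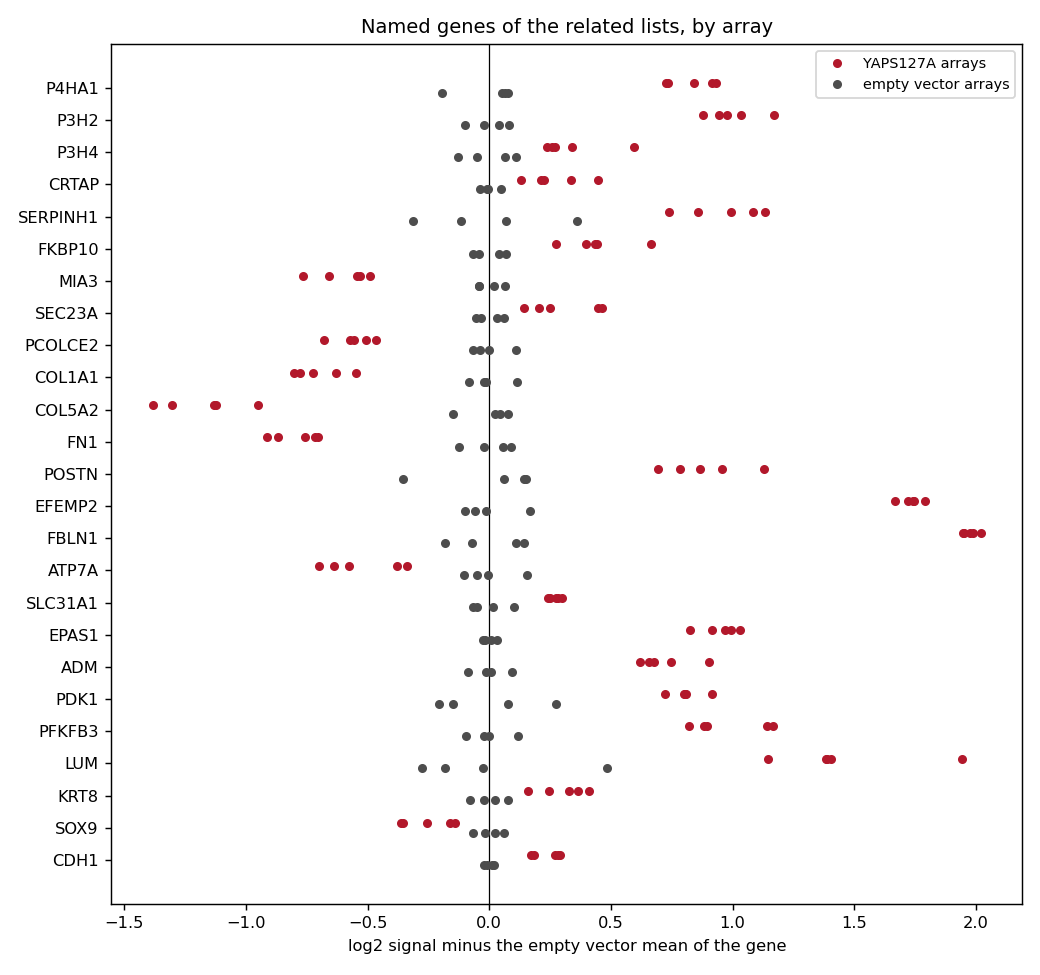
Log2 signal minus the empty vector mean of the gene (x axis) for the named genes of the related lists, with a point for each YAPS127A array (red) and each empty vector array (grey). FBLN1 and EFEMP2 lie farthest to the right, with rises of 1.98 and 1.73, and COL5A2 farthest to the left.

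Copper is the metal cofactor of lysyl oxidases. Of 7 copper delivery genes 1 rose and 1 fell, with a median of -0.08. SLC31A1, the copper importer of the cell surface, rose by 0.27 (limma adjusted p = 0.00522). ATP7A, the pump that supplies copper to the secretory pathway, fell (-0.53, limma adjusted p = 0.00114), at 1 of its 2 probe sets, and its probe sets averaged -0.28.

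Hypoxia is a known inducer of LOX, PLOD2 and P4HA1. Of 17 measured hypoxia targets and HIF factors, 7 rose and 7 fell, with a median of 0.04. EPAS1, which encodes HIF-2alpha, had 11.39, 11.33, 11.19, 11.28 and 11.35 in YAPS127A cells, against 10.34, 10.39, 10.37 and 10.34 in empty vector cells. It rose by 0.95 (SE 0.06, limma adjusted p = 6.51e-07), and by 0.48 averaged over 3 probe sets. The glycolytic regulator PFKFB3 rose by 0.98, the kinase gene PDK1 by 0.81 and the peptide hormone gene ADM by 0.72. The value of PFKFB3 was 0.36 with the neighbours' median removed, and that of PDK1 was 0.43 averaged over 3 probe sets. ANKRD37 (0.75), SLC2A1 (0.30) and VEGFA (0.26), named after their values were seen, also rose. VEGFA did not pass with the neighbours' median removed (0.22, limma adjusted p = 0.147). Apart from EPAS1, those that rose are hypoxia targets. The targets BNIP3 and PGK1 did not pass. Apart from the target NDRG1, those that fell are HIF factors or their regulators. HIF1A, named after its values were seen, fell at its probe set (-0.26, limma adjusted p = 0.0138) and stood at -0.08 with the neighbours' median removed (limma adjusted p = 0.462). Also named after their values were seen, VHL (-0.66), ARNT (-0.52), NDRG1 (-0.50), EGLN3 (-0.35), EGLN2 (-0.26) and EGLN1 (-0.19) fell. With the neighbours' median removed, EGLN3 (-0.35), NDRG1 (-0.31) and ARNT (-0.25) still passed, and VHL, EGLN2 and EGLN1 did not.

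**Figure D4:**
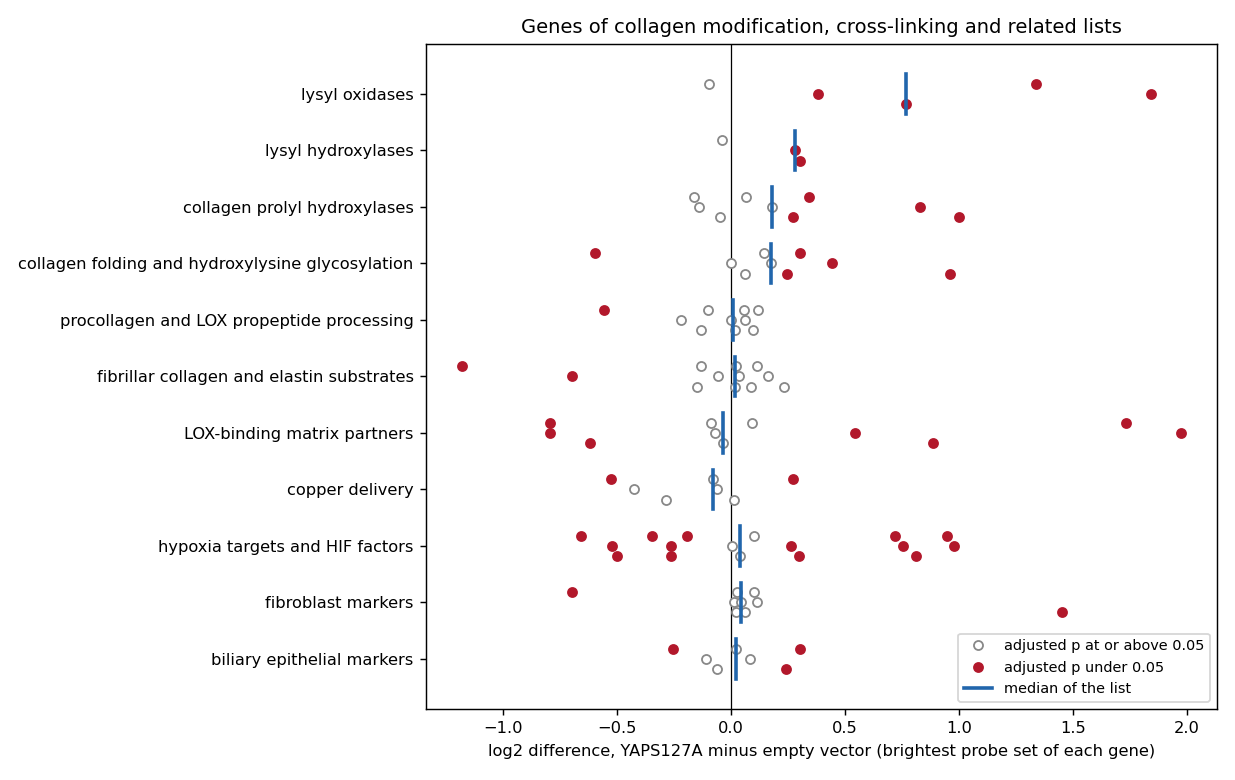
Log2 difference, YAPS127A minus empty vector, of each gene by its brightest probe set (x axis) in 11 lists (rows), filled where the limma adjusted p was under 0.05, with a bar at the median of the list. The oxidase and hydroxylase medians are 0.77 and 0.28, and the substrate list has 2 filled points, both left of 0.

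Fibroblasts make fibrillar collagens and their cross-linking enzymes in tumour stroma, so their markers were read beside these results. Of 9 fibroblast markers, LUM, which encodes the collagen-binding proteoglycan lumican, rose by 1.45 (SE 0.17, limma adjusted p = 7.89e-05), COL1A1 fell and 7 did not pass. LUM was higher by 0.94 averaged over both probe sets. The log2 of the summed linear signal of the 9 markers was 9.53 to 9.96 in YAPS127A cells and 9.31 to 9.49 in empty vector cells. That sum is weighted to the brightest markers, LUM (mean 8.72 in YAPS127A cells, 7.27 in empty vector cells) and COL1A1 (7.51 and 8.21). Only LUM was called higher, so the higher sum is not a rise of the markers as a set. DCN, COL3A1, COL1A2, PDGFRA, PDGFRB, THY1 and FAP had means of 3.71 to 5.62 in YAPS127A cells and 3.65 to 5.56 in empty vector cells, below the median of all probe sets (5.96). The part of such cells in the member differences was not tested. Of the biliary markers, KRT8 and CDH1 rose (0.30 and 0.24) and SOX9 fell (-0.25). With the neighbours' median removed, CDH1 (-0.15) and SOX9 (-0.13) did not pass. The gap between actin 3' and 5' control probe sets, a sign of RNA quality, was 1.09 ± 0.28 in YAPS127A cells (SD, n = 5) and 1.25 ± 0.31 in empty vector cells (SD, n = 4). The same 9 member probe sets were called higher with this gap as a covariate.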

How the data were processed

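Total RNA was amplified, labelled with biotin and hybridised, per the labels' protocols. The authors deposited log2 signals per probe set for 9 arrays; the unit was judged from the range of 1.62 to 14.96, and how they were normalized, summarised and background-corrected is not stated in the labels. No further scaling was applied, and there were 0 columns of other samples. Of the deposited values, 45.4% of probe sets repeat a value exactly on at least 2 arrays, among them 3 member probe sets (2 of LOXL2 and 1570219_at of LOXL4).

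Leaving out 62 controls, 54613 probe sets entered lmFit and eBayes of limma 3.58.1 under R 4.3.3, with no covariate and Benjamini-Hochberg adjustment over all of them at 0.05. The platform annotation named 1 gene for 41091, and symbols were updated through the RefSeq table of GRCh38.p14. For gene counts, the brightest probe set stood for each of 19775 genes. Errors of differences are SEs and those of levels SDs. For the neighbours' median, the median deviation from the empty vector mean of up to 50 neighbouring genes, each brighter than the median, was subtracted on each array before the fit. Gene order came from that RefSeq table.

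The members and lists were chosen with earlier results of these data known. Named were all members, up to 4 passing genes with the lowest p-values of each list, the 3 genes most like the top member of each class, YAP1 and ANKRD1; ELN, BMP1, P4HB, P4HA2 and COL11A1 were added after their values were seen, as were the genes so marked in the text. The alternatives were quantile normalization, median centring, dim probe sets left out, array weights, eBayes with trend and robust options, the replicate block, each array left out, the neighbours' median, the actin gap and the mean over probe sets. The scripts were tested on simulated data. Figures were drawn with matplotlib 3.10.9.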

Additional observations from a re-analysis of the deposited data

Results flagged for a closer look

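Among 96 groups of 4 or 5 arrays examined, 8 held an array that stood apart from the others of its group, where chance gives about 1 in 20. For LOX, empty vector replicate 2 read 8.24 at 204298_s_at, where the other 3 lay between 7.80 and 7.83, and empty vector replicate 3 read 5.70 at 213640_s_at, where the others lay between 6.26 and 6.29. For PLOD1, replicate 3 stood apart in both groups, at 9.51 in YAPS127A cells, with the others at 9.67 to 9.73, and at 9.86 in empty vector cells, with the others at 9.61 to 9.65. For LOXL2, YAPS127A replicate 2 read 6.28 at 202999_s_at, with the others at 5.95 to 6.04, and empty vector replicate 1 read 5.51 at 202998_s_at, with the others at 5.73 to 5.78. YAPS127A replicate 1 read 9.17 for P3H4, with the others at 8.82 to 8.92, and empty vector replicate 4 read 11.06 for P4HA1, with the others at 11.30 to 11.33. Without each of the arrays that stood apart for LOX, every LOX probe set was still called higher.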

How the results depend on the processing

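Of the member differences under the alternatives, 253 stayed on the same side of the threshold, with the same direction where called, 7 lost the call, 3 gained it and 0 called ones turned. The uncalled LOXL4 1570219_at and PLOD1 changed sign with the neighbours' median removed (-0.13 and 0.09), and PLOD1 also without empty vector replicate 3 (0.02). The uncalled LOXL2 202998_s_at, at 0.01, was below 0 with the neighbours' median removed (-0.04), with array weights (-0.00904) and without YAPS127A replicate 2 or 3 or empty vector replicate 1 (-0.05 at the lowest). Over the arrays left out in turn, the differences ranged from 0.32 to 0.45 for LOXL3, from 0.25 to 0.33 for PLOD3, from 0.18 to 0.28 for LOXL2 202997_s_at and from -0.27 to -0.18 for LOXL2 202999_s_at. The count of member probe sets called lower ranged from 0 to 1 and the count called higher from 7 to 9. With the neighbours' median removed, LOXL2 202999_s_at stood at -0.26 and was called, which made that count 1. The cause was not tested.

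With the replicate number as a block, LOXL3 was at 0.33 (limma adjusted p = 0.113) and PLOD3 at 0.27 (limma adjusted p = 0.0781), neither called, and 7 member probe sets were called higher. The deviations of same-numbered arrays correlated at -0.25, 0.04, 0.01 and 0.03, so the samples share only a number, and the array without a partner adds nothing to that fit. Over all probe sets the block left 5153 higher and 5153 lower, against 6506 and 6546. The pseudocounts planned for linear values were not run, the values being log2. Depth in the sense of read counts has no meaning here.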
